A study of Mus musculus with 10 samples.

Results

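Heat shock proteins and chaperonins were followed in subcutaneous mouse lung tumors as 75 protein-coding genes of the 55401 gene identifiers counted. They were chosen by gene symbol: the J proteins (Dnaja, Dnajb and Dnajc), the HSP70 and HSP110 families (Hspa and Hsph1), HSP90, the cytosolic chaperonin TRiC (Tcp1 and the Cct genes), the mitochondrial chaperonin (Hspd1 and Hspe1) and the small heat shock protein Hspb1. By the usual site of their proteins, 36 were placed in the cytosol or nucleus, 9 in TRiC, 14 in the endoplasmic reticulum (ER) and 8 in mitochondria. A remaining class took the 8 members not listed for any of these sites. Enough reads for a test were found for 70 of them: 32 of the cytosol, 8 of TRiC and every member of the other classes. The 5 left out were Dnajc6, Dnajc5b, Dnajc5g, Dnajb8 and Cct6b, each with between 0 and 7 counts in a tumor.

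Chaperones bind unfolded stretches of other proteins and help them fold, with HSP70 and HSP90 working in cycles of ATP hydrolysis, that of HSP70 driven by J proteins and exchange factors, and with chaperonins enclosing their clients in a chamber. In the cytosol, heat shock factor 1 (HSF1) switches on inducible members under proteotoxic stress, and in the ER the unfolded protein response (UPR) raises its own set. Cancer cells are known for leaning on chaperones, HSP90 above all, to keep mutated and overproduced proteins in shape.

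The tumors grew from KPN1.1, a single mouse lung cancer cell line, injected under the skin of male C57BL/6J mice with diet-induced obesity. Of the mice compared, 5 had received the PBS vehicle and 5 had received the GLP-1 receptor agonist liraglutide daily into the peritoneum. Each library came from a frozen fragment of 1 tumor, with the host cells in it, after depletion of ribosomal RNA. In such bulk samples, fewer cells of a type and less RNA per cell cannot be told apart.

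Total counts lay between 9927942 and 14480593 per tumor, where 3 counts correspond to 0.207 to 0.302 CPM (counts divided by library size, scaled by TMM normalization factors), and the members took between 1.02% and 1.34% of all counts. The label of lung adenocarcinoma was met by Krt8 (1631 to 3294 CPM), Cdh1 (559.9 to 2236 CPM) and Nkx2-1 (17.7 to 132 CPM), whereas Epcam lay between 0.163 and 4.63 CPM and the surfactant gene Sftpc between 0 and 5.96 CPM. The tumors were not alike within groups. Vehicle tumors 1, 2 and 3 held the least Nkx2-1 (17.7 to 26.6 CPM, against 52.2 CPM or more elsewhere) and the lowest summed leukocyte markers, at 348, 329 and 509 CPM, against 960 and 947 CPM in vehicle tumors 4 and 5 and 521 to 1427 CPM in the liraglutide tumors. Summed fibroblast markers split the same vehicle tumors, at 3760, 4056 and 3493 CPM in tumors 1 to 3 and 1775 and 1705 CPM in tumors 4 and 5, with 2330 to 3971 CPM in liraglutide tumors. All 10 leukocyte markers and all 9 skeletal muscle markers had a positive log2 fold change, with summed muscle markers of 207 to 878 CPM in vehicle and 495 to 1588 CPM in liraglutide tumors. All 6 proliferation markers, all 8 immediate early genes and all 5 erythroid markers had a negative one, and the summed erythroid markers ran from 26.9 to 74.1 CPM in vehicle and from 15.6 to 33.5 CPM in liraglutide tumors. Of 7 keratinocyte markers 4 were tested, and all 4 had a positive log2 fold change. All 7 together summed to between 8.57 and 19.6 CPM in vehicle tumors, to 240.3, 87.0 and 54.4 CPM in liraglutide tumors 2, 4 and 5 and to 6.91 and 6.90 CPM in liraglutide tumors 1 and 3, with Krt5, Krt1, Loricrin, Flg and Dsg1a at 0 in some tumors. Summed proliferation markers stood at 1715, 1885, 1857, 932 and 1538 CPM in vehicle tumors 1 to 5 and at 1093, 1791, 1177, 1163 and 1091 CPM in liraglutide tumors 1 to 5. The part of these differences in the results on chaperones was not tested.

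No chaperone passed the test across all genes. By edgeR's quasi-likelihood test, 0 of 70 members had a Benjamini-Hochberg adjusted p under 0.05, where the share over all 17464 genes tested was 0.0%. The smallest adjusted p of a member was 0.482. DESeq2 gave an adjusted p to 35 members, of which 0 were under 0.05, against 1.37% of all the genes to which it gave one, and limma-voom gave 0 members and 0.0% of all genes. Their smallest adjusted p for a member were 0.062 (Hsp90b1) and 0.465. At an unadjusted p under 0.05, 15 members were lower with liraglutide and 0 were higher. That is 21.4% of the members, against 5.62% of all genes in the lower direction and 3.97% in the higher one. The 15 were Hspa1b, Hsp90aa1, Hspa4l, Dnajb1, Dnajb4 and Dnaja2 of the cytosol, Cct2, Cct4, Cct6a, Cct7 and Cct8 of TRiC, Hspd1, Hspe1 and Dnajc19 of mitochondria, and Hsp90b1 of the ER. Dnajb4 and Dnaja2 are named here after their values were seen. The count depended on single tumors: it was 7 without liraglutide tumor 5 (2.99% of all genes in that fit), 8 without liraglutide tumor 3 (3.35%), 9 without liraglutide tumor 4 (3.98%) or without vehicle tumor 2 (3.35%), 20 without liraglutide tumor 2 (7.95%) and 21 without vehicle tumor 4 (8.06%). The share of all genes thus fell and rose with that of the members. Hsp90b1, Hspe1, Hspa4l, Dnajb1, Cct2 and Cct4 were the 6 that stayed under 0.05 whichever tumor was left out. The share of all genes that did so was not counted, so these 6 have no background to be set against. In 0 of 70 members did the 5 tumors of one group all lie outside the range of the other, against 0.888% of all genes lower and 0.607% higher without overlap.

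The compartments differed in how their members lay. The log2 fold change, liraglutide minus vehicle, was below 0 for 49 of 70 members (70.0%, against 52.6% of all genes), with a median of -0.11 against -0.02 over all genes. It was below 0 for 25 of 32 cytosolic members (median -0.12), 8 of 8 TRiC subunits (median -0.32) and 8 of 8 mitochondrial members (median -0.18), but for 6 of 14 ER members (median 0.04) and 2 of 8 in the remaining class (median 0.19). The members other than J proteins had a median of -0.27 (24 of 29 below 0), and the 41 J proteins a median of -0.07 (25 of 41 below 0). No test was run between compartments, and these counts depend on the class in which each member was listed.

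**Figure D1:**
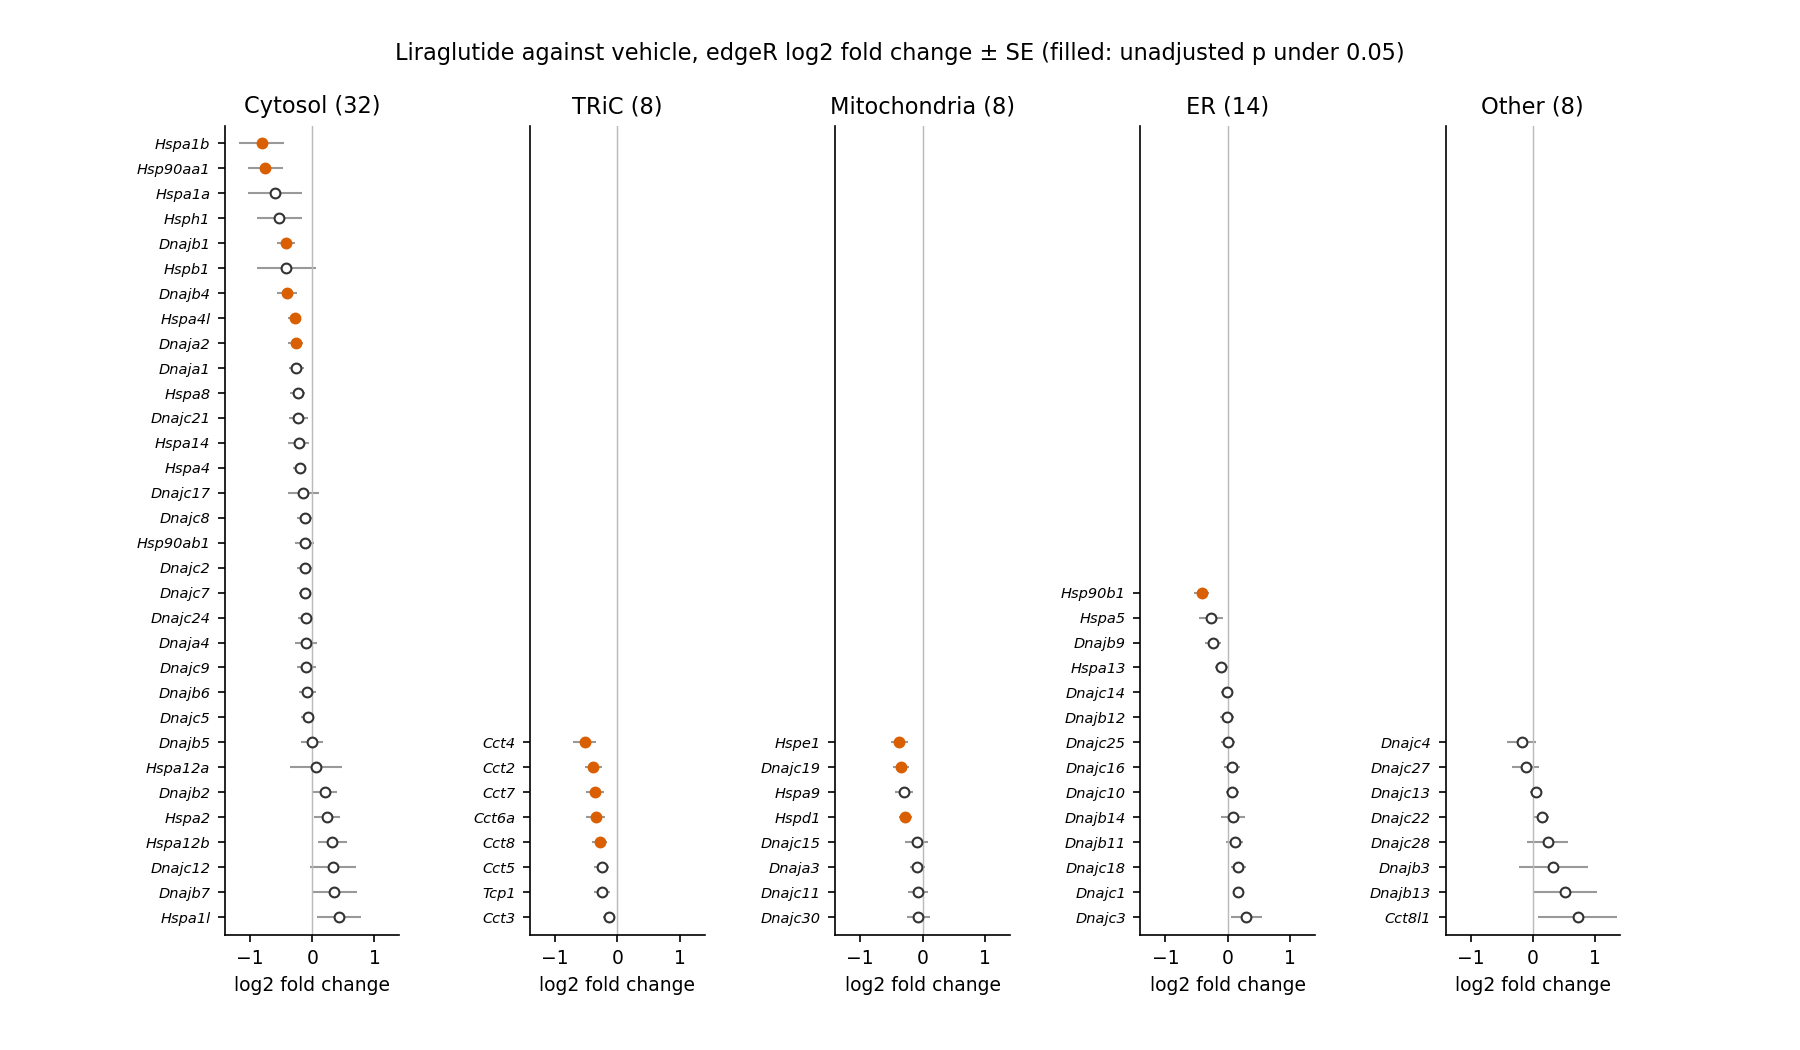
Log2 fold change (liraglutide against vehicle, edgeR, ± SE) of each of the 70 tested members, by compartment, with filled points at an unadjusted p under 0.05. All 8 TRiC and all 8 mitochondrial members lie left of 0, and the 14 ER members lie on both sides, with Hsp90b1 farthest to the left.

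Summed over the members of a compartment, CPM had a lower mean with liraglutide for TRiC, mitochondria, the cytosol and the ER. For the ER this differed from the median log2 fold change of its members, which was 0.04. The sums are in percent of the TMM-scaled library size and are not exact shares of all counts. TRiC summed to 0.229%, 0.240%, 0.224%, 0.170% and 0.196% in vehicle tumors 1 to 5 and to 0.178%, 0.207%, 0.154%, 0.164% and 0.145% in liraglutide tumors 1 to 5, with overlap between the groups. Mitochondrial members summed to 0.117%, 0.121%, 0.130%, 0.114% and 0.147% in vehicle tumors and to 0.104%, 0.119%, 0.104%, 0.104% and 0.0891% in liraglutide tumors, again with overlap. Cytosolic members summed to 0.677% ± 0.105 in vehicle and 0.573% ± 0.0720 in liraglutide tumors (SD, n = 5), and ER members to 0.260% ± 0.0480 and 0.229% ± 0.0120. The ER sum thus had a wide spread in vehicle tumors, from 0.207% in tumor 1 to 0.326% in tumor 5, and a narrow one with liraglutide, from 0.212% to 0.240%.

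When each gene was given equal weight, as the mean over members of log2 CPM minus that gene's mean over the 10 tumors, the cytosolic level was high in vehicle tumors 1, 2 and 3 (0.16, 0.22 and 0.15) and low in vehicle tumors 4 and 5 (-0.18 and -0.04). The ER level ran the other way among the same tumors, at -0.15, -0.14 and -0.05 in vehicle tumors 1 to 3 and at 0.07 and 0.25 in vehicle tumors 4 and 5. The liraglutide tumors ran from -0.21 to 0.13 for the cytosol and from -0.08 to 0.08 for the ER. Among the compartments, the mitochondrial level was the one that left no overlap, at 0.08, 0.03, 0.17, -0.003 and 0.20 in vehicle tumors 1 to 5 and at -0.09, -0.04, -0.10, -0.06 and -0.19 in liraglutide tumors 1 to 5. The gap was narrow, between vehicle tumor 4 and liraglutide tumor 2, and the summed mitochondrial CPM overlapped. How often other lists of genes leave no overlap was not counted. These levels are descriptions with no test, since the members of a compartment are not replicates.

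**Figure D2:**
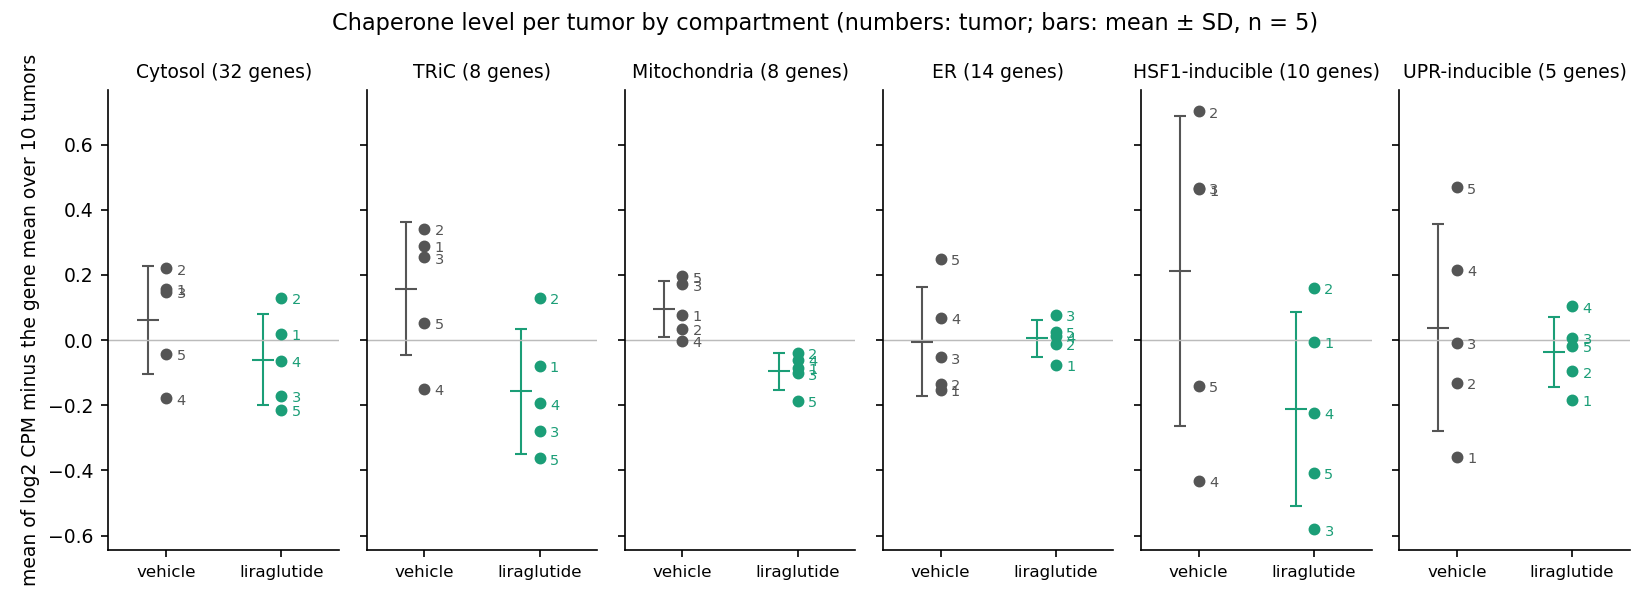
Mean over the members of log2 CPM minus the gene mean over 10 tumors, for each tumor (numbered points), with the mean ± SD of 5 tumors beside them. Vehicle tumors 1, 2 and 3 stand high for cytosol, TRiC and HSF1-inducible members and low for ER members, and vehicle tumors 4 and 5 stand the other way in the ER.

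Compared per length, as CPM per kilobase of the canonical transcript, the most abundant member was Hsp90ab1 (772), followed by Hspa8 (719), Hsp90b1 (248), Hsp90aa1 (175), Hspa5 (167), Hspa9 (161) and Hspd1 (160.1). The TRiC subunits lay close together, from 58.9 to 130.0, with a median of 75.9. Medians were 15.2 over the cytosolic members, 15.4 over those of the ER and 19.3 over those of mitochondria. With the length of all exons in place of the canonical transcript, Hsp90ab1 (386) and Hspa8 (198) stayed first and second, and Hspa5 (149) came before Hsp90aa1 (134) and Hsp90b1 (115).

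Among the cytosolic HSP70 genes, Hspa8 encodes the constitutive form. It stood at 2039, 1981, 2104, 1613 and 1568 CPM in vehicle tumors 1 to 5 and at 1651, 1719, 1556, 1632 and 1352 CPM in liraglutide tumors 1 to 5. Vehicle tumors 1 to 3 were the 3 highest and the rest overlapped, for a log2 fold change of -0.23 ± 0.12 (SE) (edgeR, unadjusted p = 0.0662, adjusted p = 0.541). The stress-inducible Hspa1b stood at 68, 97.1, 69.4, 21.7 and 46.4 CPM in vehicle tumors 1 to 5 and at 58.5, 33.8, 20.9, 29.7 and 29.5 CPM in liraglutide tumors 1 to 5. Its tumors spread over more than their group means differed: vehicle tumor 4 lay near the lowest liraglutide tumors and liraglutide tumor 1 near vehicle tumors 1 and 3. The log2 fold change was -0.81 ± 0.37 (SE) (edgeR, unadjusted p = 0.0484, adjusted p = 0.519). Its near-copy Hspa1a stood at 11.9, 21, 16.4, 4.6 and 9.61 CPM in vehicle tumors 1 to 5 and at 14.9, 8.82, 2.96, 7.84 and 7.44 CPM in liraglutide tumors 1 to 5, with a log2 fold change of -0.60 ± 0.43 (SE) and the same tumors high and low.

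Hspa1a and Hspa1b are neighboring near-copies. How reads that match both were counted is not given in the sources used here, so their single values are uncertain. The 250 bases before each start, from the RefSeq promoter table (GRCm38.p6, minus strand, 5′ to 3′), are shown because both genes varied widely between tumors. Capitals mark the bases that differ. The Hspa1a stretch is chr17:34972157-34972406 and the Hspa1b stretch is chr17:34959239-34959488.
Hspa1a: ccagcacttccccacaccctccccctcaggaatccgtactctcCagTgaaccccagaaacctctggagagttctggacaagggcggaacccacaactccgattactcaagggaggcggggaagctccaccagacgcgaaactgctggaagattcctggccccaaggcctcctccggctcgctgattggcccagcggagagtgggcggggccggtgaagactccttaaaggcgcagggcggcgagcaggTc
Hspa1b: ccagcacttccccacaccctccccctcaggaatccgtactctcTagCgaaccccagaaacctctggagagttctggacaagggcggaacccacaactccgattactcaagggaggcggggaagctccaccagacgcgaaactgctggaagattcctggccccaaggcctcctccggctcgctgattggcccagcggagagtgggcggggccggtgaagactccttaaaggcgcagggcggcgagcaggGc
Counted from 1 at the 5′ end, Hspa1a and Hspa1b differed by C44T, T47C and T249G, which left 98.8% of 250 bases identical. Both hold GAANNTTC, the inverted pair of units at which HSF1 binds, and this pair or its other form, TTCNNGAA, was found on either strand in the 250 bases of 15 of the 61 members with a window (24.6%) and of 14.5% of all 27025 genes in the table. The full heat shock element, 3 units in alternating orientation with 2 bases between neighbours, contains the shorter pair and was found on either strand in Hspd1, Hspe1 and Dnajb6, 3 of 61 members (4.92%), and in 0.514% of all genes. Not searched were the 14 members with no window: Hspa8, Hsp90aa1, Hsp90ab1, Hspa9, Hspa13, Cct4, Dnajc2, Dnajc5, Dnajc5b, Dnajc11, Dnajc12, Dnajc18, Dnajc22 and Dnajc30. These matches are descriptions of the letters.

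The other HSP70 genes were far less abundant than Hspa8. Hspa14, of the ribosome-associated complex, stood at 33.4, 35.9, 34.6, 23.3 and 24.2 CPM in vehicle tumors 1 to 5 and at 26.3, 34.6, 21.8, 25.1 and 22.3 CPM in liraglutide tumors 1 to 5. Hspa2, best known from the testis, ran from 11.3 to 25.8 CPM in vehicle and from 20.5 to 27.1 CPM in liraglutide tumors. Hspa12b, a distant endothelial relative, ran from 2.85 to 5.04 CPM and from 3.46 to 6.71 CPM. Hspa12a lay at 1.38, 1.42, 2.73, 2.34 and 6.27 CPM in vehicle tumors 1 to 5, with the highest value in tumor 5. The log2 fold changes were -0.22 for Hspa14, 0.24 for Hspa2, 0.32 for Hspa12b, 0.06 for Hspa12a and 0.43 for Hspa1l, which had at most 1.31 CPM, and all had an adjusted p of 0.656 or more by edgeR.

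HSP110 proteins are exchange factors that release ADP from HSP70. Hspa4l was the least variable of them. It stood at 125, 130.5, 129.9, 128 and 139 CPM in vehicle tumors 1 to 5 and at 116, 125, 104, 102 and 90.0 CPM in liraglutide tumors 1 to 5. Only liraglutide tumor 2 reached the vehicle range, and the log2 fold change was -0.28 ± 0.10 (SE) (edgeR, unadjusted p = 0.0159, adjusted p = 0.482). Hspa4 showed the same direction, at 438 ± 32 CPM in vehicle tumors and 381 ± 44.6 CPM in liraglutide tumors (SD, n = 5 each), with a log2 fold change of -0.20 ± 0.10 (SE). Hsph1, the inducible one, stood at 156, 153, 106, 47.7 and 53.4 CPM in vehicle tumors 1 to 5 and at 60.7, 125, 58.3, 60.7 and 53.5 CPM in liraglutide tumors 1 to 5. Vehicle tumors 1 to 3 and liraglutide tumor 2 formed the high end, and vehicle tumors 4 and 5 were the lowest of all 10. Its log2 fold change of -0.53 ± 0.37 (SE) had a 95% interval of -1.33 to 0.28.

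HSP90 has an inducible and a constitutive cytosolic gene. The inducible Hsp90aa1 stood at 923, 1211, 756, 511 and 468 CPM in vehicle tumors 1 to 5 and at 439, 725, 339, 435 and 361 CPM in liraglutide tumors 1 to 5. Liraglutide tumors 1, 3, 4 and 5 lay below every vehicle tumor, and liraglutide tumor 2 lay near vehicle tumor 3. The log2 fold change was -0.75 ± 0.29 (SE) (edgeR, unadjusted p = 0.023, adjusted p = 0.499). The constitutive Hsp90ab1 stood at 2530.5, 2459, 2251, 1557 and 2079.5 CPM in vehicle tumors 1 to 5 and at 2417, 2298, 1772, 1818 and 1683 CPM in liraglutide tumors 1 to 5. Vehicle tumor 4 was its lowest and the groups overlapped widely, with a log2 fold change of -0.12 ± 0.15 (SE) and a 95% interval of -0.46 to 0.22. The small heat shock protein Hspb1, which holds unfolded proteins without ATP, stood at 20.2, 26.5, 19.3, 5.52 and 5.38 CPM in vehicle tumors 1 to 5 and at 14.1, 19.3, 6.14, 10.8 and 7.15 CPM in liraglutide tumors 1 to 5. It varied most of all members with at least 10 CPM, with an SD of log2 CPM within groups of 0.91, ahead of Hspa1a at 0.82, Hspa1b at 0.70 and Hsph1 at 0.67, and its log2 fold change was -0.42 ± 0.48 (SE).

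Within a tumor, the ratio of the inducible to the constitutive HSP90 gene does not depend on how libraries are scaled. The counts of Hsp90aa1 were 0.365, 0.492, 0.336, 0.328 and 0.225 times those of Hsp90ab1 in vehicle tumors 1 to 5 and 0.181, 0.316, 0.191, 0.239 and 0.215 times in liraglutide tumors 1 to 5. Vehicle tumor 5 was the one vehicle tumor inside the liraglutide range. The mean log2 ratio was -1.56 ± 0.40 in vehicle and -2.16 ± 0.32 in liraglutide tumors (SD, n = 5), a difference of -0.60 (two-sided exact permutation test, p = 0.0317, adjusted p = 0.190 over 6 ratios). The smallest p that 5 against 5 tumors allow is 0.00794. The other 5 ratios had an exact permutation p between 0.222 and 0.968. Hspa1a plus Hspa1b came to 0.0163 to 0.0596 of Hspa8 in vehicle and 0.0154 to 0.0444 in liraglutide tumors, a log2 difference of -0.48. Hspa5 over Hspa8 spread from 0.294 to 0.838 in vehicle and from 0.407 to 0.546 in liraglutide tumors, with a difference of 0.01 on the log2 scale.

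**Figure D3:**
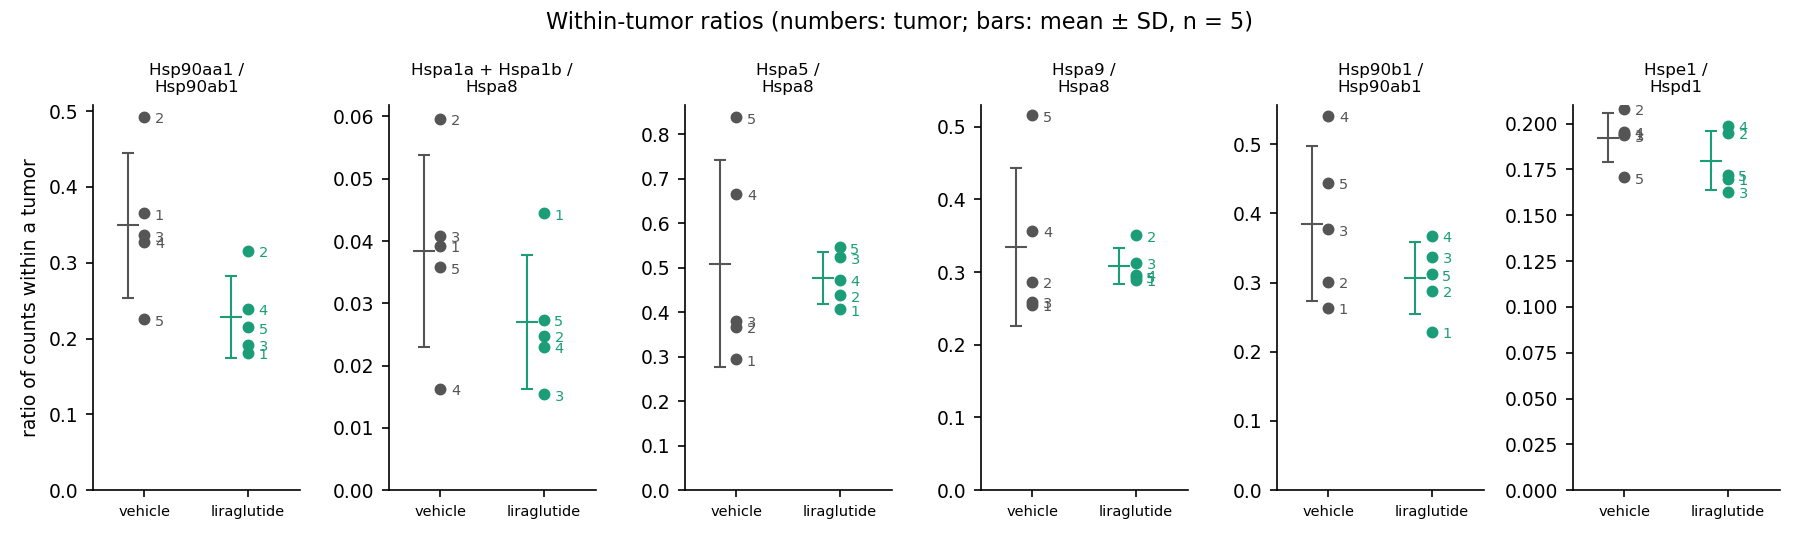
Ratio of the counts of 2 members within each tumor (numbered points; linear axes from 0), with the mean ± SD of 5 tumors. The ratio of Hsp90aa1 to Hsp90ab1 lies between 0.225 and 0.492 in vehicle and between 0.181 and 0.316 in liraglutide tumors, and the ratio of Hspa5 to Hspa8 is highest in vehicle tumors 4 and 5.

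J proteins bring clients to HSP70 and start its ATP hydrolysis. The inducible Dnajb1 stood at 72.5, 81.3, 74, 46.4 and 66.4 CPM in vehicle tumors 1 to 5 and at 52, 55.1, 44.8, 50.8 and 52.3 CPM in liraglutide tumors 1 to 5. Vehicle tumor 4 was the only vehicle tumor inside the liraglutide range, and the log2 fold change was -0.42 ± 0.14 (SE) (edgeR, unadjusted p = 0.0126, adjusted p = 0.482). Dnaja1, a partner of Hspa8, stood at 148, 166, 129, 137 and 146 CPM in vehicle tumors 1 to 5 and at 111, 158, 111, 111 and 117 CPM in liraglutide tumors 1 to 5. Liraglutide tumors 1, 3, 4 and 5 were below every vehicle tumor and liraglutide tumor 2 above all vehicle tumors but tumor 2, for a log2 fold change of -0.25 ± 0.12 (SE). Dnajb4 and Dnaja2 had log2 fold changes of -0.40 and -0.27. Of the 18 cytosolic J proteins tested, 15 had a log2 fold change below 0, with a median of -0.11, and the 3 above were Dnajb2 (0.21), Dnajc12 (0.34) and Dnajb7 (0.36), the last 2 at 3.10 CPM or less in every tumor and all 3 named after their values were seen.

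The 10 members listed as inducible by HSF1 were Hspa1a, Hspa1b, Hspa8, Hsph1, Hsp90aa1, Hspb1, Dnajb1, Dnaja1, Hspd1 and Hspe1. All 10 had a log2 fold change below 0, with a median of -0.42, and 5 had an unadjusted p under 0.05 (50%, against 5.62% of all genes). That 5 was 2 without liraglutide tumor 5, 3 without vehicle tumor 2 or liraglutide tumor 3 or 4, and 6 without vehicle tumor 4 or 5 or liraglutide tumor 2. Their mean level separated single tumors more than the groups, at 0.46, 0.70 and 0.47 in vehicle tumors 1 to 3, at -0.43 and -0.14 in vehicle tumors 4 and 5, and at -0.01, 0.16, -0.58, -0.22 and -0.41 in liraglutide tumors 1 to 5. Hsf1 itself stood at 20.0 to 28.8 CPM in vehicle and 22.3 to 30.5 CPM in liraglutide tumors, with a log2 fold change of 0.05 ± 0.13 (SE). Of 30 other cytosolic co-chaperones and regulators, among them Hsf1, the Bag proteins, the prefoldin subunits and the HSP90 partners, 22 had a log2 fold change below 0 (median -0.10), 6 were lower at an unadjusted p under 0.05 (20.0%, against 5.62% of all genes) and 0 were higher (3.97% of all genes).

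**Figure D4:**
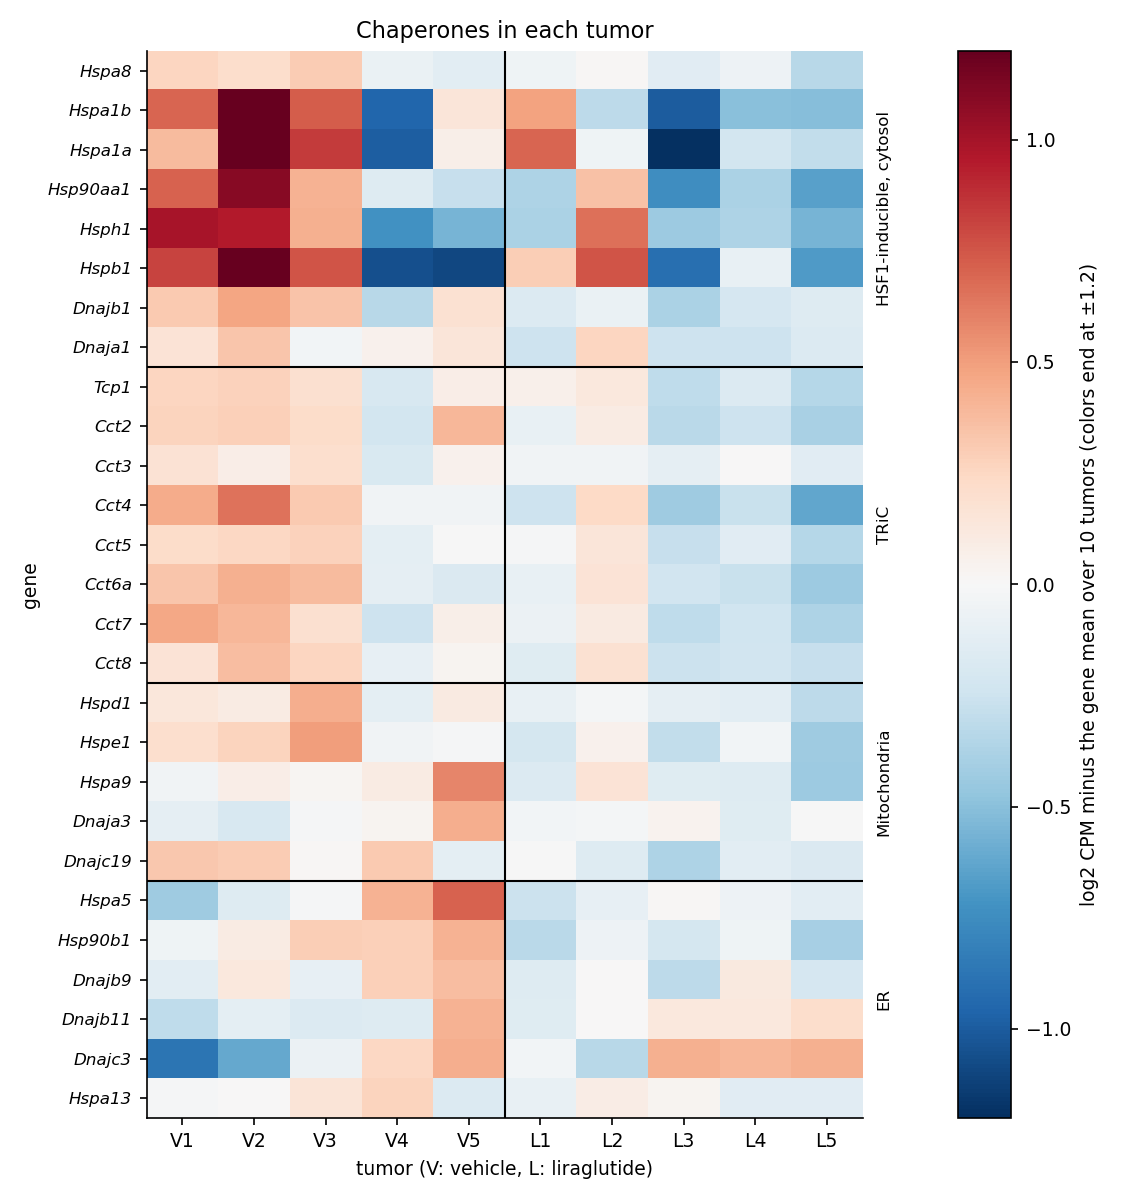
Log2 CPM minus the gene mean over 10 tumors for 27 members in vehicle (V1 to V5) and liraglutide (L1 to L5) tumors, red above and blue below the mean. The inducible cytosolic genes are red in V1 to V3 and blue in V4, other than Dnaja1, the TRiC rows move together, and Hspa5 is most red in V5.

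TRiC is a chamber built of 8 different subunits that folds actin, tubulin and other cytosolic proteins. The 8 genes were high and low in much the same tumors, with vehicle tumors 1 to 3 high and liraglutide tumors 3 to 5 low. Cct4 had the lowest fold change of them. It stood at 366, 422, 334, 262 and 262 CPM in vehicle tumors 1 to 5 and at 226, 319, 200.3, 224 and 175 CPM in liraglutide tumors 1 to 5. Liraglutide tumor 2 alone reached past vehicle tumors 4 and 5, and the group means gave a log2 fold change of -0.52 ± 0.18 (SE) (edgeR, unadjusted p = 0.0147, adjusted p = 0.482). Cct2 stood at 303, 307, 293, 215 and 331 CPM in vehicle tumors 1 to 5 and at 236, 268, 200.2, 211 and 192 CPM in liraglutide tumors 1 to 5. Vehicle tumor 4 fell among the liraglutide tumors and the other vehicle tumors lay above all of them, for a log2 fold change of -0.39 ± 0.13 (SE) (unadjusted p = 0.0146 by edgeR). Tcp1, the first subunit, stood at 340.2, 345, 324, 249 and 301 CPM in vehicle tumors 1 to 5 and at 296, 310.4, 231, 254 and 225 CPM in liraglutide tumors 1 to 5. Here liraglutide tumors 1, 2 and 4 lay within the vehicle range and tumors 3 and 5 below it, with a log2 fold change of -0.25 ± 0.13 (SE).

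The remaining subunits had log2 fold changes of -0.36 (Cct7), -0.35 (Cct6a), -0.29 (Cct8), -0.25 (Cct5) and -0.14 (Cct3). Cct8 ran from 241 to 334 CPM in vehicle and from 214 to 295 CPM in liraglutide tumors, the upper value in liraglutide tumor 2. Cct3 had the narrowest spread, from 149 to 194 CPM and from 153 to 169 CPM. All 8 subunits were below 0 under each of the other fits and scalings and whichever tumor was left out. How many had an unadjusted p under 0.05 was less stable: 5 with all tumors, 8 without vehicle tumor 4, 7 without liraglutide tumor 2, 6 without vehicle tumor 5, 3 without vehicle tumor 3 or liraglutide tumor 1, and 2 without vehicle tumor 1 or 2 or liraglutide tumor 3, 4 or 5. The share of all genes lower at that p ran from 2.99% to 8.06% over the same fits. Proliferation markers were highest in vehicle tumors 1 to 3 and liraglutide tumor 2, where the TRiC level was also high (0.29, 0.34, 0.25 and 0.13), and the part of that in the difference was not tested. Across the 10 tumors, Tcp1 and Cct2 had r = 0.91 and rho = 0.867 (permutation test, adjusted p = 0.00152 and 0.00744 over 8 pairs), with r = 0.88 after group means were removed and r = 0.84 without liraglutide tumors 3 and 5.

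Mitochondria have their own chaperonin, Hspd1 (HSP60), with its lid Hspe1 (HSP10), and an HSP70, Hspa9, that also pulls proteins in through the inner membrane. Hspd1 stood at 422, 413, 519.9, 355 and 413 CPM in vehicle tumors 1 to 5 and at 362, 378, 356, 351 and 308 CPM in liraglutide tumors 1 to 5. Vehicle tumor 3 was the highest and liraglutide tumor 5 the lowest, with vehicle tumor 4 among the liraglutide tumors, and the log2 fold change was -0.27 ± 0.11 (SE) (edgeR, unadjusted p = 0.0295, adjusted p = 0.503). Hspe1 stood at 81.9, 85.8, 101, 69.4 and 70.5 CPM in vehicle tumors 1 to 5 and at 61.5, 73.7, 58, 69.7 and 53 CPM in liraglutide tumors 1 to 5. The same tumors marked its ends, and the log2 fold change was -0.37 ± 0.13 (SE) (edgeR, unadjusted p = 0.0167, adjusted p = 0.482). The counts of Hspe1 were 0.171 to 0.208 times those of Hspd1 in vehicle and 0.163 to 0.199 times in liraglutide tumors, a log2 difference of -0.10 (exact permutation test, p = 0.254). Hspe1 has annotated pseudogene copies, the most counted of which held 347 counts over the 10 tumors, against 8515 for Hspe1, so part of its reads may be assigned elsewhere.

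Hspd1 and Hspe1 are read from opposite strands of a shared stretch of chromosome 1, where their annotated starts lie 95 or 216 bases apart. The 30 bases around the heat shock element in it (chr1:55088053-55088082, GRCm38.p6, plus strand, 5′ to 3′, 71 bases before the start of Hspe1) are shown because this element lies in the upstream window of Hspe1 and in 1 of the windows of Hspd1. Capitals mark overlapping matches to the element on both strands.
Hspe1 and Hspd1: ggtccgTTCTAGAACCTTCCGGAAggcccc
Across the 10 tumors Hspd1 and Hspe1 had r = 0.91 and rho = 0.830 (permutation test, adjusted p = 0.00128 and 0.0101 over 8 pairs). The value was r = 0.83 with group means removed and r = 0.74 without vehicle tumor 3 and liraglutide tumor 5.

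Hspa9 stood at 520.1, 567, 544, 574 and 808 CPM in vehicle tumors 1 to 5 and at 478, 602, 487, 483 and 396 CPM in liraglutide tumors 1 to 5. Vehicle tumor 5 stood far above the rest, and liraglutide tumors 1, 3, 4 and 5 lay below every vehicle tumor, for a log2 fold change of -0.30 ± 0.15 (SE) (edgeR, unadjusted p = 0.0626, adjusted p = 0.536). It followed Hspd1 less closely than Hspe1 did, with r = 0.49 and rho = 0.515 (permutation test, adjusted p = 0.162 and 0.151 over 8 pairs), r = 0.17 with group means removed and r = 0.28 without vehicle tumor 5 and liraglutide tumor 5. Dnajc19, a J protein of the import motor, stood at 25.7, 25.3, 20.7, 25.4 and 19 CPM in vehicle tumors 1 to 5 and at 20.4, 18.4, 15.8, 18.8 and 18.2 CPM in liraglutide tumors 1 to 5. Vehicle tumor 5 alone lay inside the liraglutide range, with a log2 fold change of -0.34 ± 0.12 (SE) (edgeR, unadjusted p = 0.018, adjusted p = 0.482). Dnaja3, the main J protein of the matrix, ran from 58 to 89.4 CPM in vehicle and from 59.8 to 68.2 CPM in liraglutide tumors, with a log2 fold change of -0.08 ± 0.12 (SE). Dnajc11, Dnajc15 and Dnajc30 had values of -0.07, -0.10 and -0.07. The count of 8 of 8 mitochondrial members below 0 was 6 without vehicle tumor 5 and 7 without liraglutide tumor 2. Of 15 other genes of mitochondrial protein folding, import and proteolysis, 11 had a log2 fold change below 0 (median -0.24), with 6 lower (40.0%, against 5.62% of all genes) and 0 higher (3.97% of all genes) at an unadjusted p under 0.05.

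**Figure D5:**
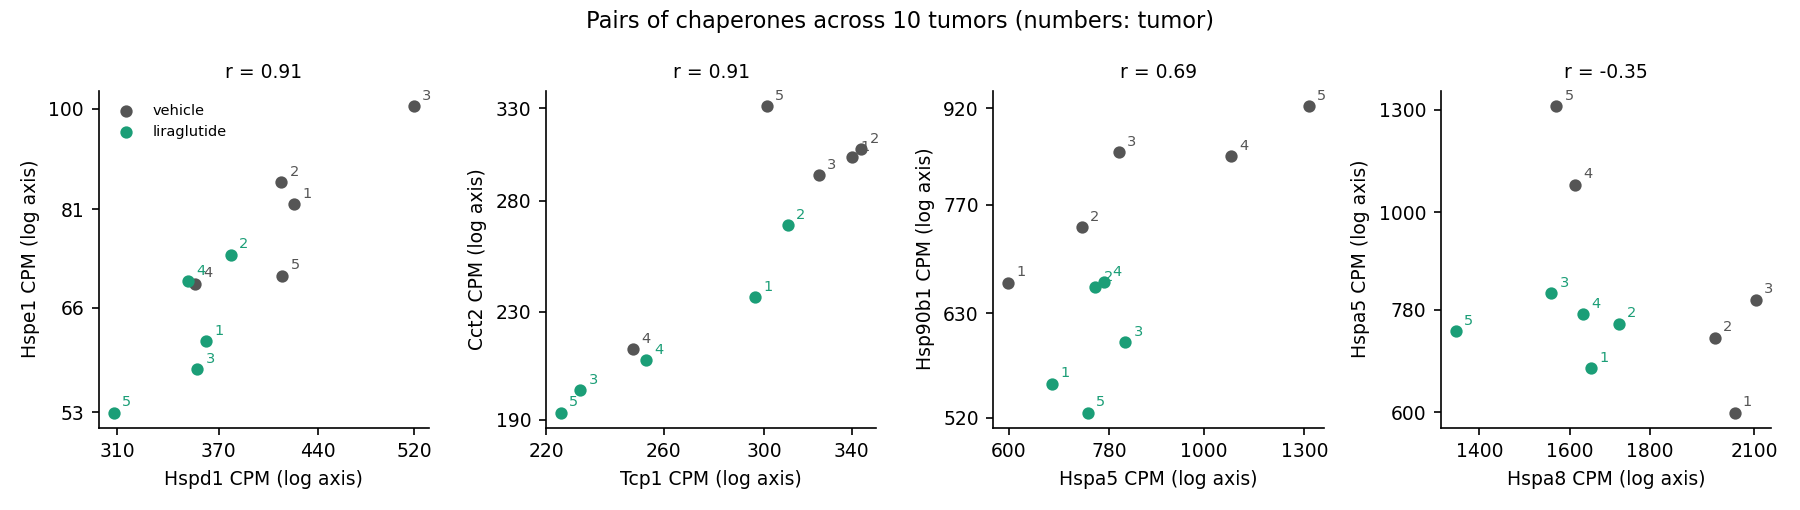
CPM (log axes) of 4 pairs of members in 10 tumors, vehicle in gray and liraglutide in green, numbered by tumor. Hspd1 with Hspe1 and Tcp1 with Cct2 lie along a line with vehicle and liraglutide tumors at its ends, whereas Hspa5 with Hsp90b1 is drawn out by vehicle tumors 4 and 5.

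In the ER, Hspa5 (BiP) is the HSP70 and the sensor partner of the UPR, and Hsp90b1 (GRP94) is the HSP90. Hsp90b1 had the smallest unadjusted p of all members. It stood at 667, 739, 848, 842 and 924 CPM in vehicle tumors 1 to 5 and at 553, 662, 598, 668 and 525 CPM in liraglutide tumors 1 to 5. Only vehicle tumor 1 lay inside the liraglutide range, just under liraglutide tumor 4, and the log2 fold change was -0.42 ± 0.11 (SE) with a 95% interval of -0.67 to -0.17 (edgeR, unadjusted p = 0.00361, adjusted p = 0.482). Hspa5 stood at 599, 726, 800.1, 1074 and 1314 CPM in vehicle tumors 1 to 5 and at 671, 752, 814, 770.3 and 738 CPM in liraglutide tumors 1 to 5. Vehicle tumors 4 and 5 lay above the narrow liraglutide range and vehicle tumor 1 below it, and the log2 fold change was -0.27 ± 0.19 (SE) with a 95% interval of -0.68 to 0.15 (edgeR, unadjusted p = 0.183). Without vehicle tumor 5 the log2 fold change was -0.088.

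The ER stress response element, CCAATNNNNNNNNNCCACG, was looked for in the 250 bases before the start on either strand. Hspa5, Hsp90b1 and Dnajc3, all UPR-inducible, were the 3 of 61 members (4.92%) with it, against 0.130% of all genes in the table. Each site is shown in 30 bases (GRCm38.p6, strand of the gene, 5′ to 3′) with the match in capitals, since these genes share the element and differed in the tumors. They are chr2:34772020-34772049 for Hspa5 (plus strand), chr10:86705632-86705661 and chr10:86705527-86705556 for Hsp90b1 (minus strand, the second in reverse) and chr14:118937822-118937851 for Dnajc3 (plus strand).
Hspa5: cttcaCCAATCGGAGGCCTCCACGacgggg
Hsp90b1 site 1: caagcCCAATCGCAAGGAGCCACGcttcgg
Hsp90b1 site 2: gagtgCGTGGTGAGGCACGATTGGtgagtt
Dnajc3: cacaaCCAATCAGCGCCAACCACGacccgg
The match ends 46 bases before the start in Hspa5, 193 and 88 bases in Hsp90b1 and 86 bases in Dnajc3. The shorter XBP1 and ATF6 element TGACGTGG was found in 1 member, Dnajc25, and in 0.603% of all genes.

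Dnajc3, an ER co-chaperone of Hspa5, stood at 64.3, 77.5, 113, 140.5 and 160.4 CPM in vehicle tumors 1 to 5 and at 116, 94, 159, 156 and 159 CPM in liraglutide tumors 1 to 5. Vehicle tumors 1 and 2 were the lowest of all 10, and its log2 fold change of 0.30 ± 0.25 (SE) was above 0 while those of Hspa5 and Hsp90b1 were below it (edgeR, unadjusted p = 0.26, adjusted p = 0.696). Dnajb11, another J protein of the ER lumen, stood at 58.9, 67.4, 65, 65.6 and 97.3 CPM in vehicle tumors 1 to 5 and at 65.9, 73.4, 79.5, 79.5 and 84.6 CPM in liraglutide tumors 1 to 5. Apart from vehicle tumor 5, the vehicle tumors lay below 4 of the 5 liraglutide tumors, with a log2 fold change of 0.11 ± 0.14 (SE). Dnajb9, a J protein that restrains the UPR sensor IRE1, stood at 44.6, 53, 45.6, 59.3 and 62.7 CPM in vehicle tumors 1 to 5 and at 43.6, 48.8, 39.1, 52.6 and 42.2 CPM in liraglutide tumors 1 to 5. The 3 highest tumors were vehicle tumors 2, 4 and 5, nearly matched by liraglutide tumor 4, and the log2 fold change was -0.23 ± 0.13 (SE). So of the 5 UPR-inducible members 3 were below 0 and 2 above, with a median of -0.23.

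Of the other ER members, Hspa13 had a log2 fold change of -0.10. Dnajc1, a J protein of the ER membrane that contacts ribosomes, stood at 63.6, 66.2, 60.5, 59 and 56 CPM in vehicle tumors 1 to 5 and at 66.2, 67.2, 77, 60.3 and 73.8 CPM in liraglutide tumors 1 to 5, and at 0.17 ± 0.09 (SE) it had the smallest unadjusted p of a member above 0 (edgeR, unadjusted p = 0.0929, adjusted p = 0.575). Dnajc18 followed at 0.17 ± 0.12 (SE). The other ER J proteins, Dnajc10, Dnajc14, Dnajc16, Dnajc25, Dnajb12 and Dnajb14, lay between -0.02 and 0.08. Across the 11 ER J proteins 8 log2 fold changes were above 0, with a median of 0.08.

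Hspa5 and Hsp90b1, the main ER pair, had r = 0.69 and rho = 0.564 over 10 tumors (permutation test, adjusted p = 0.0316 and 0.127 over 8 pairs). With group means removed r was 0.75 (permutation test, adjusted p = 0.0136). Without vehicle tumors 4 and 5, r was 0.21, so the relation rests on those tumors. Across compartments, Hspa8 and Hspa5 had r = -0.35 and rho = -0.442 (permutation test, adjusted p = 0.318 and 0.204). Without vehicle tumors 1 and 3, r was -0.18 (exact permutation test, p = 0.589). With group means removed r was -0.74 (permutation test, adjusted p = 0.0136). Vehicle tumors 1 to 3 were the higher ones of their group for Hspa8 and the lower ones for Hspa5, whereas among liraglutide tumors the one with the most Hspa8, tumor 2, had a middle level of Hspa5.

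Among the regulators of the UPR, Xbp1 ran from 87.6 to 117 CPM in vehicle and from 85.3 to 118 CPM in liraglutide tumors. Atf4 ran from 157 to 264 CPM and from 127 to 183 CPM, with a log2 fold change of -0.33 ± 0.15 (SE, edgeR, unadjusted p = 0.0504, adjusted p = 0.520). Liraglutide tumors 1, 3, 4 and 5 lay below every vehicle tumor for Atf4. Ddit3, with a log2 fold change of -0.52 ± 0.31 (SE), was highest in vehicle tumor 5, at 34.5 CPM, where Hspa5, Hspa9 and Dnajb11 were also highest, and ran from 9.24 to 18.1 CPM in the other vehicle and from 10.5 to 17.1 CPM in the liraglutide tumors. Of 24 other ER folding and UPR genes, these 3 included, 15 were below 0 (median -0.07), with 1 lower (Ero1a, -0.70, named after its value was seen) and 0 higher at an unadjusted p under 0.05. That 1 is 4.17% of the list, under the 5.62% of all genes.

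The remaining class holds every member that was not listed for a compartment, whatever its site. Dnajc4 (-0.18) and Dnajc28 (0.24) were counted here and not with the mitochondrial members. Dnajc13, an endosomal J protein, stood from 201 to 259 CPM in vehicle and from 217 to 245 CPM in liraglutide tumors, a log2 fold change of 0.05 ± 0.09 (SE). Dnajc22 stood at 36.4, 32.4, 44.8, 44.8 and 40.4 CPM in vehicle tumors 1 to 5 and at 41.6, 39.3, 48.1, 43.4 and 46.7 CPM in liraglutide tumors 1 to 5, and its log2 fold change of 0.14 ± 0.11 (SE) was among the 5 of smallest p above 0. Dnajc4, Dnajc27, Dnajc28, Dnajb13, Dnajb3 and Cct8l1 had log2 fold changes from -0.18 to 0.72, with at most 13.2 CPM in any tumor.

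Among pairs of the cytosol, Hspa1a and Hspa1b had r = 0.94 and rho = 0.988 (permutation test, adjusted p = 0.00032 and 0.00024 over 8 pairs). Hspa1a and Dnajb1, on different chromosomes, had r = 0.82 and rho = 0.855 (adjusted p = 0.0059 and 0.00779 by permutation), with r = 0.84 after group means were removed and r = 0.69 without vehicle tumor 2 and liraglutide tumor 3 (exact permutation test, p = 0.0618), short of the threshold. Hsp90aa1 and Hsp90ab1 had r = 0.71 and rho = 0.685 (adjusted p = 0.0316 and 0.0559 by permutation), with r = 0.74 after group means were removed. Without vehicle tumors 1 and 2, r was 0.54 (exact permutation test, p = 0.181), and so passed the threshold only with those tumors.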

How the data were processed

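RNA was measured in 10 KPN1.1 tumors of obese mice, 5 given vehicle and 5 given liraglutide, grouped and numbered by their labels. The authors mapped read pairs with Bowtie and TopHat, counted them per gene with featureCounts and deposited raw counts with no normalization. The study's text names GRCm39 and the labels name mm10 and GRCh38. The annotation release, the strand setting and how multiply mapped reads were treated are not given in the sources used here. Of the gene identifiers, 93.4% were matched, without version, to GENCODE M39, which gave symbols and lengths.

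Total counts lay between 9927942 and 14480593, and floors of 3 counts cover counting error only. Genes were filtered (filterByExpr, leaving 17464) and tested with edgeR 4.0.16 in R 4.3.3: TMM factors, the quasi-likelihood F test on treatment alone, and Benjamini-Hochberg adjustment over all genes tested. The 95% intervals used the t quantile at the 11.2 degrees of freedom of that test. CPM used the TMM-scaled library sizes, and log2 levels a prior count of 2. The count model was tested on simulated data. Ratios of counts (0.5 added) were tested by exact two-sided permutation of the tumors, and pair correlations of log2 CPM across tumors by 100000 permutations. Members, gene lists, ratios and pairs were chosen with earlier results of these data known, and no test was run over a list.

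Genes named are the tested HSP70, HSP110, HSP90, small HSP, TRiC, HSP60 and HSP10 genes and Dnaja1, Dnajb1, Dnajb9, Dnajb11, Dnajc3, Dnaja3 and Dnajc19, members past the test or without overlap, the 5 of smallest p in each direction, the 5 of largest SD within groups at 10 CPM or more, and Hsf1, Xbp1, Atf4 and Ddit3. Alternatives were limma-voom (limma 3.58.1), DESeq2 1.42.0, scaling by DESeq2's size factors or by library size alone, no filter, at least 10 counts in every tumor, the tumor number as a block and each tumor left out in turn. Promoter windows were taken from a RefSeq table (GRCm38.p6), which held 61 of the 75 members, and motifs were searched in the 250 bases before each start.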

Additional observations from a re-analysis of the deposited data

Results flagged for a closer look

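In a group of 5 tumors, a single tumor was set apart where its gap to the nearest other tumor took more than 0.71 of the group's range. This held in 8 of 106 groups looked at, and chance flags about 1 in 20. Liraglutide tumor 2 was the highest of its group for Dnaja1 (158 CPM, the next at 117), Hsph1 (125 CPM, the next at 60.7) and Cct8 (295 CPM, the next at 235), while its TRiC level and summed proliferation markers (1791 CPM) were also the highest of its group. Vehicle tumor 4 was the lowest for Cct2 (215 CPM, the next at 293) and for Hsf1 (20.0 CPM, the next at 26.8). Vehicle tumor 5 was the highest for Dnajb11 (97.3 CPM, the next at 67.4) and for Hspa9 (808 CPM, the next at 574). Hspa1l was lowest in liraglutide tumor 5, at 0.447 CPM, the next at 1.04 CPM. None of these patterns was weighed further, and their cause was not tested.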

How the results depend on the processing

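The 0 members with an adjusted p under 0.05 stayed at 0 under every alternative fit, scaling and filter run and whichever tumor was left out. At an unadjusted p under 0.05, 1 member was higher with library size alone (Dnajc1), where 990 of all 17464 genes were. With the replicate block 1 member was higher (Dnajc3), against 7.5% of all genes. With no filter 1 member was lower without overlap (Hspa4l), against 0.532% of all genes. The count of members lower at an unadjusted p under 0.05 was 10 with library size alone (3.54% of all genes in that fit), 15 with DESeq2 (3.3%), limma-voom (5.09%) or DESeq2's size factors (5.45%), 14 with no filter (3.6%) and 13 with at least 10 counts in every tumor (5.34%). With tumors left out in turn, members lower at an unadjusted p under 0.05 numbered 7 to 21 (2.99% to 8.06% of all genes). Members higher numbered 0 to 1, where all genes higher ran from 391 of 17680 (without liraglutide tumor 5) to 1268 of 17816 (without vehicle tumor 4). Members lower without overlap numbered 1 to 7 (1.01% to 2.54% of all genes) and members higher without overlap 0 to 1 (0.764% to 2.21%). Medians of log2 fold changes then ran from -0.21 to -0.09 for the cytosol, -0.40 to -0.26 for TRiC, -0.02 to 0.08 for the ER, -0.26 to -0.13 for mitochondria and 0.08 to 0.36 for the remaining class. Signs turned with a tumor left out for the ER median and for 13 of the 70 members, among them Dnajc11 (-0.17 to 0.052), Dnajc30 (-0.16 to 0.034), Dnaja3 (-0.14 to 0.041) and Hspa12a (-0.12 to 0.60), and also for Hsf1 (-0.029 to 0.11), Xbp1 (-0.032 to 0.094), the ratio of Hspa5 to Hspa8 (-0.15 to 0.22) and that of Hspa9 to Hspa8 (-0.15 to 0.10). The other 57 members kept their sign, and 34 of them moved by over 1.5 times, among them Hspa5 (-0.39 to -0.088), Hsp90ab1 (-0.22 to -0.063), Hspb1 (-0.68 to -0.13), Hsph1 (-0.81 to -0.33), Hspa1a (-0.91 to -0.34), Hspa2 (0.094 to 0.35), Hspa13 (-0.15 to -0.036), Dnajb11 (0.052 to 0.26) and Dnajc3 (0.15 to 0.48). The 23 within 1.5 times included all 8 TRiC subunits, Hspd1, Hspe1, Hsp90aa1 and Hsp90b1. Ddit3 ran from -0.69 to -0.16 and Atf4 from -0.39 to -0.18. The log2 difference in the ratio of Hspa1a plus Hspa1b to Hspa8 ran from -0.76 to -0.29, and that of Hspe1 to Hspd1 from -0.14 to -0.065. For the ratios to Hsp90ab1 it ran from -0.74 to -0.46 (Hsp90aa1) and from -0.42 to -0.16 (Hsp90b1). Correlations then ran from 0.52 to 0.76 for Hspa5 and Hsp90b1, from 0.65 to 0.84 for Hsp90aa1 and Hsp90ab1 and from 0.27 to 0.71 for Hspa9 and Hspd1. With library size alone, Hsp90aa1 and Hsp90ab1 had r = 0.66 (permutation test, adjusted p = 0.0573), and with group means removed Hspa8 and Hspa5 had r = -0.74 (permutation test, adjusted p = 0.0136). The cause of these shifts was not tested.

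Tumors share numbers across groups, but nothing says that a number marks a shared mouse or batch. After group means were removed, same-numbered tumors had correlations of 0.354, 0.565, -0.0753, 0.0681 and 0.389 over all genes, and both tumors of pair 2 alone correlated best with each other. With the number as a replicate block, 18 members in place of 15 had an unadjusted p under 0.05 and a lower level (7.31% of all genes), and 14 members were in both sets. The smallest adjusted p by edgeR was 0.240. The block changed no call at the adjusted threshold. By flipping the signs of paired differences, for which 0.0625 is the smallest p, the ratios of Hsp90aa1 and of Hsp90b1 to Hsp90ab1 each had an exact p of 0.0625 and were lower in 5 of 5 pairs. With the block, Ero1a had an unadjusted p of 0.0695 by edgeR, and 7 TRiC subunits and 7 HSF1-inducible members, in place of 5 each, were lower at an unadjusted p under 0.05.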
